A study of Drosophila melanogaster with 3 samples.

Results

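Weak coding peaks are places in protein-coding parts of Drosophila genes where the CG8089 chromatin immunoprecipitation sequencing (ChIP-seq) lists held an entry outside the reproducible list. There were 5603 of them among the 30000 entries of the authors' pooled peak list. They were chosen by measured values: a pooled entry was kept when it overlapped none of the 3233 reproducible peaks of the same data, which have higher signal, and when its summit lay in coding sequence more than 500 bp from every transcription start site (TSS). The pooled entries that overlapped no reproducible peak numbered 26232, and 8394 of these had intronic, 4208 intergenic and 7100 promoter summits. The 3 libraries were biological replicates numbered 2, 3 and 4 of 1 group. All came from whole embryos of 0 to 24 hours and of mixed sex, from a line that stably makes CG8089 carrying GFP at its C-terminal end. An antibody against GFP pulled down the chromatin, which had been sheared to 200 to 800 bp. There was no untagged or treated group, the mixture of all embryonic cell types cannot be resolved, and control libraries were not analysed here. Peak lists carry no expression values, so the tissue label could not be compared with marker genes.

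ChIP-seq reads pile up where a tagged protein, or any open or easily recovered chromatin, is enriched. A peak caller run with a loose threshold lists the strong sites first and then a long tail of weak local maxima. The irreproducible discovery rate (IDR) step keeps a part of the list, set by how well ranks hold between replicates. Here 3231 of the 3233 kept entries were among the 3233 strongest pooled entries. Members thus lay below a cut in pooled signal, and some of them held summits of all 3 replicates. Coding sequence differs from the rest of the fly genome in composition. It is richer in G and C than introns and intergenic DNA, largely because fly codons prefer G or C at the third position. Recovery and amplification of DNA in sequencing libraries depend on base composition, so composition is a basic property to look at in a weak tail.

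The windows below show what the strongest members look like. Each is 201 bases of the coding strand, centred on the summit and wholly inside a coding exon, read from the Release 6 (dm6) genome of RefSeq. Capitals mark bases that lie in any of the 91 6-base words that were more frequent at weak coding summits than in coding sequence at large. The first window is in mirr, which encodes an Iroquois homeodomain transcription factor, at chr3L:12696654-12696854 on the plus strand. The next are in hid, a cell death gene (chr3L:18184881-18185081, minus strand), SF2, a splicing factor of the SR family (chr3R:16341376-16341576, minus strand), l(1)G0320 (chrX:9552130-9552330, minus strand) and CG4822 (chr2L:117829-118029, minus strand).
mirr: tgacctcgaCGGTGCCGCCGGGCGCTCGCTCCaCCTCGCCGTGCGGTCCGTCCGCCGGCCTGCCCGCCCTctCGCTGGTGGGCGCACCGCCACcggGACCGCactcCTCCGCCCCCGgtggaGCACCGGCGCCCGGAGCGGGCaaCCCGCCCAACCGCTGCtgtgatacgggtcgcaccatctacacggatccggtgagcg
hid: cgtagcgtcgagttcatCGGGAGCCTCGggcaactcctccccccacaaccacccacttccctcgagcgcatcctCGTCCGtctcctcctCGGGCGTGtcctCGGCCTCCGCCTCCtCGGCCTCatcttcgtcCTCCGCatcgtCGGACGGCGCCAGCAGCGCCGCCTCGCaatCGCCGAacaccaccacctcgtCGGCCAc
SF2: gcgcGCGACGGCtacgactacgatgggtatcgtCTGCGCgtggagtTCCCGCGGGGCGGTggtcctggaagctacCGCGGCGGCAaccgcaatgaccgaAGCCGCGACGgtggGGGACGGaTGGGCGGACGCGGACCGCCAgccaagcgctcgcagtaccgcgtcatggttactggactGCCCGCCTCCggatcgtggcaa
l(1)G0320: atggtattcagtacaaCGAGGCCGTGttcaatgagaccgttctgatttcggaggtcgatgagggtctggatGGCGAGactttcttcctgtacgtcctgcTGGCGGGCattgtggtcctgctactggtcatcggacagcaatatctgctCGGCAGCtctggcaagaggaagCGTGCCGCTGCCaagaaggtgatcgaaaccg
CG4822: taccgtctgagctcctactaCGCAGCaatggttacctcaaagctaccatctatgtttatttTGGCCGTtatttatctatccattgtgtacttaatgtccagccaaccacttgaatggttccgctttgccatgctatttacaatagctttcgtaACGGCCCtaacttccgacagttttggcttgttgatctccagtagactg
The mirr window had a GC content of 76.1% and capitals over 67.2% of its bases. The hid and SF2 windows had 69.2% and 69.7% GC, with capitals over 45.3% and 42.3%. The l(1)G0320 window had 55.2% GC and 21.4% capitals, and the CG4822 window had 43.3% GC and 9.95% capitals, below the coding average in both. Over all members capitals covered a mean of 24.5% of the window, beside 16.9% of windows tiled over eligible coding sequence; the words were chosen on summits of the same data, so this is a description.

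Members were weak by the rule. The pooled signal, the authors' measure of peak strength, ran from 35.6 to 114.7 with a median of 46.1, and pooled ranks ran from 3281 to 30000. The deposited −log10 q-value had a median of 0.211, and 141 members (2.52%) had a q-value under 0.05. Just inside the threshold stood mirr at a signal of 114.7 and SCAP at 113.1. Just outside it stood the weakest reproducible coding peaks, in cta (116.4), which encodes a G protein alpha subunit, RpL8 (119.5), a ribosomal protein, bif (119.7), Glut4EF (124.1) and Debcl (130.9), a Bcl-2 family gene. Only 15 of the reproducible peaks were coding by the same definition, led by the homeobox gene otp at a signal of 1075. On the position side, the nearest member lay 501 bp from a TSS, and 1566 unreproduced coding summits at 500 bp or less were left out. Every member was 396 bp wide, 298 overlapped the member before it, and the median gap between neighbouring members was 7483 bp. The tagged gene, CG8089, held 0 members in its 1304 eligible coding bases, and 1 weak coding summit of replicate 4.

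The strongest members were found in most replicates but at different ranks. At mirr the signal was 49.2 in replicate 2, 26.5 in replicate 3 and 37.6 in replicate 4, at ranks 2099, 10335 and 3280 of those lists. At l(1)G0320 the signal was 32.5, 32.0 and 38.8 in replicates 2, 3 and 4, at ranks 4374, 7381 and 3078. At hid it was 32.6, 28.7 and 48.7, at ranks 4321, 8965 and 1990. In these 3 genes replicate 3 placed the peak farthest down its list. CG4822 had the opposite order, with a signal of 31.9, 53.7 and 23.3 and ranks of 4517, 2768 and 10216, so replicate 3 placed it highest. At SF2 the signals were 27.9, 37.6 and 27.0, at ranks 6467, 5490 and 7136, and no replicate stood far from the others.

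The other strongest members were SCAP, which escorts the sterol-regulated factor SREBP, mtd, mam, a coactivator of Notch, fj, a Golgi kinase of the Fat pathway, Pep, an RNA-binding zinc-finger protein, shv, CG9500, kuk, a nuclear envelope protein, ArfGAP1, which acts on a small GTPase of membrane traffic, and sgg, the fly GSK3 kinase. At mam the signal was 42.7 in replicate 2, 35.8 in replicate 3 and 37.4 in replicate 4. At kuk it was 42.6, 23.4 and 34.2. At shv replicate 2 had no summit, and replicates 3 and 4 had signals of 23.1 and 37.7. Of the 15 strongest members, 14 held a summit of all 3 replicates, and replicate 3 ranked 8 of them lowest, replicate 2 4 and replicate 4 3, counting the missing summit at shv as lowest. Where a summit was present, their median rank was 4348 in replicate 2, 6902 in replicate 3 and 3325 in replicate 4. GC content was above the coding average of 51.9% in 13 of the 15, the exceptions being CG4822 at 43.3% and CG9500 at 40.8%. Their distance to a TSS ran from 512 bp at SF2 to 8753 bp at mam, and 3 lay within 1000 bp of a reproducible summit (mtd at 870 bp, hid at 980 bp and SF2 at 791 bp). The mtd summit lay outside the coding sequence of the canonical transcript.

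**Figure D1:**
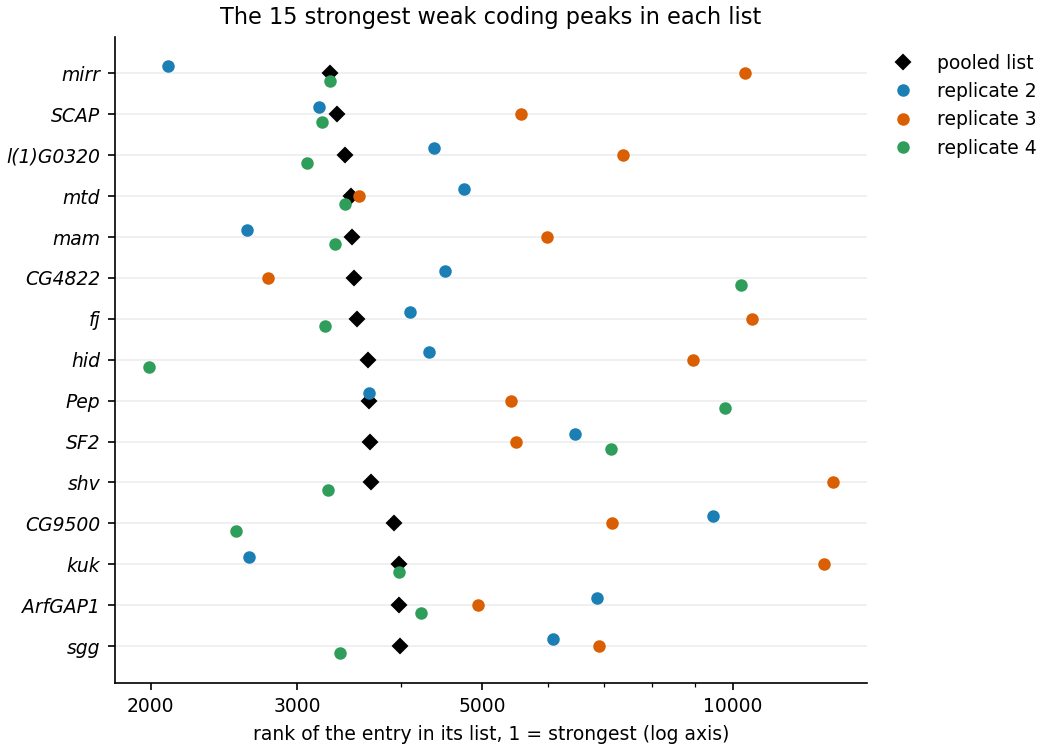
Rank of the 15 strongest weak coding peaks (rows, by gene) in the pooled list and in each replicate list; the x axis is rank on a log scale, 1 being the strongest entry. The pooled ranks sit between 3281 and 3986 while the replicate ranks spread from 1990 to 13195, and no point is drawn at shv for replicate 2, which had no summit there.

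Coding summits filled the weak tail from a certain rank on. In the pooled list 0.4% of the strongest 3000 summits were eligible coding, 5.03% of the next 3000 and 15.3% of those ranked 6001 to 9000. The share then stayed between 20.5% and 25.4%. Eligible coding sequence, 18.6 Mb, makes up 13.9% of the genome. The rise began at different ranks in the replicates. At ranks 3001 to 6000 the coding share was 19.7% in replicate 2, 1.87% in replicate 3 and 13.9% in replicate 4. Replicate 3 passed the genome share only at ranks 15001 to 18000 (15.5%) and reached 20.2% at the end of its list, below the 22.1% and 25.3% of replicates 2 and 4 there.

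**Figure D2:**
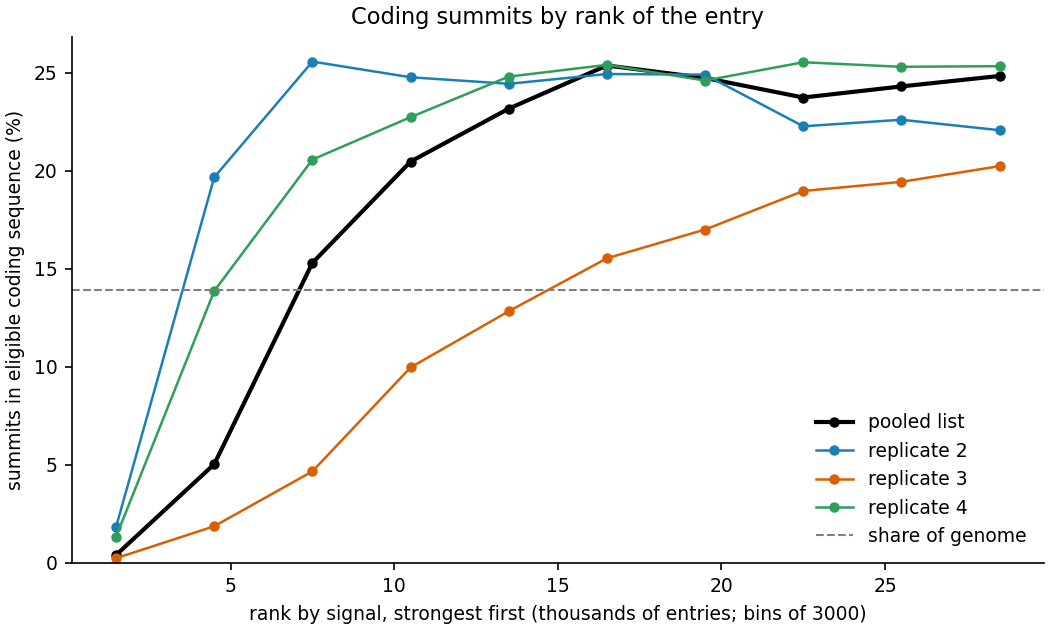
Share of summits in eligible coding sequence (y axis, %) in successive bins of 3000 entries by signal (x axis, rank) for the pooled list and each replicate; the dashed line is the 13.9% of the genome that is eligible. Replicates 2 and 4 level off early in the list, and replicate 3 climbs slowly to 20.2%.

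Over whole replicate lists, 6375 of 26661 unreproduced summits were eligible coding in replicate 2 (23.9%), 3602 of 25906 in replicate 3 (13.9%) and 6264 of 26276 in replicate 4 (23.8%). The mean was 20.6% ± 5.76 (SD, n = 3), against 13.9% of the genome. Position and lack of overlap with reproducible peaks are part of the rule, so these shares are a description with no test. Replicates 2 and 4 were nearly alike and replicate 3 stood at the genome share. Weak promoter summits ran the other way, with 17.5%, 32.2% and 24.6% of the unreproduced summits of replicates 2, 3 and 4.

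Base composition was a property that members shared and the rule did not use. Windows of 100 bp on each side of the summit had a mean GC content of 56.7%, 55.1% and 56.1% in replicates 2, 3 and 4. Eligible coding windows had 51.9%. The excess was 4.12 percentage points ± 0.786 (SD, n = 3, two-sided exact sign-flip permutation test, p = 0.25). That is the smallest p that 3 replicates allow in any such test here. All 3 replicates were above the coding average. At the third codon position GC was 68.1%, 67.4% and 67.9%, against 63.1%. Pooled members had 57.1% GC. It fell with strength, from 58.6% in the strongest 1400 members to 57.3%, 56.6% and 55.8% in the next groups of 1401. The 15 reproducible coding peaks had a mean of 49.9%, below the mean of coding windows. Their median of 53.2% was above the median of coding windows, 52.7%, so the direction depends on the statistic.

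The density of summits rose with GC along the whole scale above 40%. In eligible coding windows of 40 to 45% GC there were 110 weak coding summits per Mb in replicate 2, 97.5 in replicate 3 and 124 in replicate 4. At 55 to 60% there were 463, 255 and 455 per Mb. At 70 to 75%, where the coding sequence has only 164 windows, there were 1707, 793 and 1372. Replicate 3 thus had the shallowest rise. The SD between the 3 replicates, in summits per Mb, was 463 at 70 to 75% GC and 452 at 65 to 70%, at means of 1291 and 975. Relative to the mean it was thus larger at 65 to 70%. The bins under 40% GC held only 2, 13 and 41 members.

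The excess in GC was not particular to coding sequence. Unreproduced promoter summits exceeded promoter windows by 3.38 points ± 1.21, intronic summits exceeded introns by 3.02 ± 1.61 and intergenic summits exceeded intergenic DNA by 3.57 ± 1.75 (SD, n = 3). The coding excess minus the intronic excess was 1.1 points ± 0.824 (exact sign-flip permutation p = 0.25), and minus the intergenic excess 0.546 ± 0.990 (p = 0.75 by the same exact test). Replicate 3 had the smallest excess in each class.

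The coding share was then set beside the genome at the same GC content. When windows of the whole genome, whose mean GC is 42.1%, were weighted to the GC of each replicate's unreproduced summits, 25.6% of them were eligible coding for replicate 2, 17.7% for replicate 3 and 24.2% for replicate 4. The observed coding shares were 0.936, 0.784 and 0.986 of these values, a mean of 0.902 ± 0.106 (SD, n = 3). Coding sequence was therefore above its genome share without this weighting in replicates 2 and 4. It was below the GC-weighted share in all 3 (mean difference −1.94 percentage points ± 1.78, SD, n = 3), again a description with no test. By bin, the coding share of summits was below that of genome windows from 25 to 55% GC in all 3 replicates. At 60 to 65% it was 75.6% in replicate 2, 67.3% in replicate 3 and 74.7% in replicate 4, against 67.7% of genome windows, so replicate 3 was just below it there too. Why the replicates differ in GC was not tested.

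**Figure D3:**
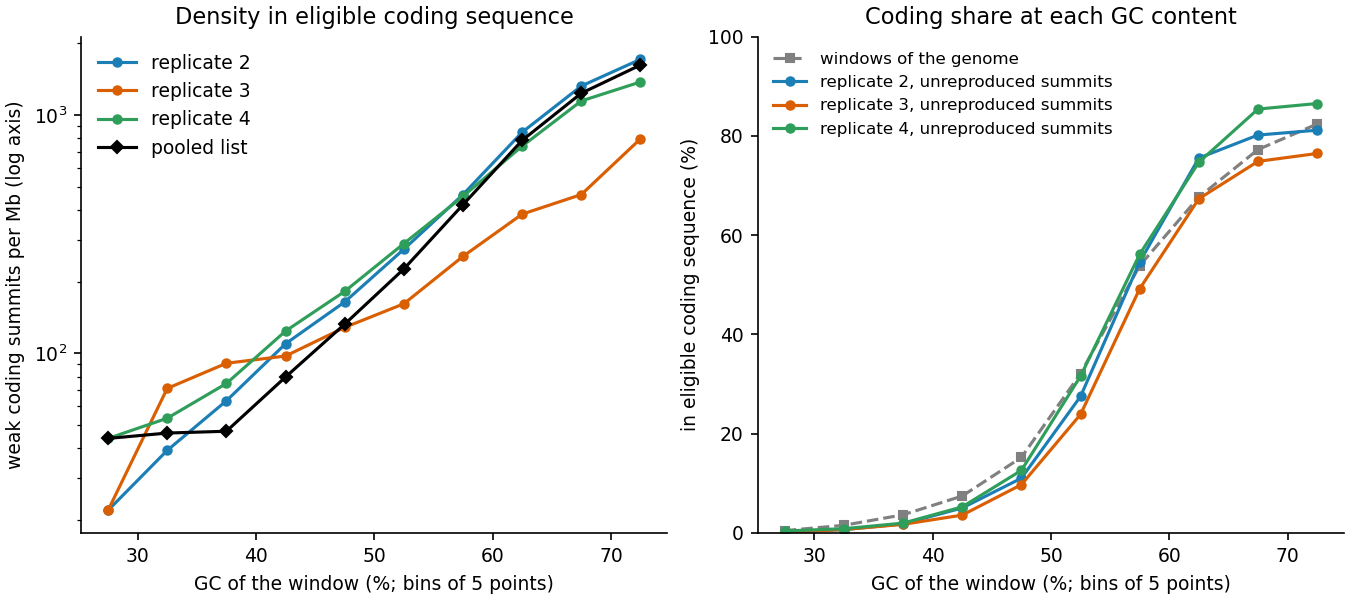
Left, weak coding summits per Mb of eligible coding sequence (log axis) against the GC content of the window in bins of 5 points, for each replicate and the pooled list; right, the share in eligible coding sequence of unreproduced summits and of windows tiled over the genome at the same GC content. Density rises steeply with GC, least in replicate 3, and on the right the replicate lines follow the grey line of the genome, running below it up to 55% GC.

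Summits of one replicate fell in peaks of another more often than the share of coding bases those peaks covered. Averaged over the other 2 replicates, a weak coding summit of replicate 2 lay in a peak of another replicate in 25.1% of cases, of replicate 3 in 34.4% and of replicate 4 in 27.2%, a mean of 28.9%. Peaks of the other replicates covered a mean of 10.4% of eligible coding bases. These values are a description with no test, since the summits were chosen for lying outside the reproducible peaks. The 3 values also draw on the same 3 pairs of lists. The mean fold over the covered share was 2.79 for coding summits, 4.23 for intronic summits, 5.72 for intergenic summits and 2.36 for weak promoter summits. The values of coding and intronic summits did not overlap between replicates, with coding at 2.57, 2.91 and 2.88 and introns at 3.63, 4.39 and 4.66. With the covered share weighted to the GC content of the summits, 13.7% of coding bases were covered and the coding fold was 2.13 (1.93, 2.28 and 2.19 in replicates 2, 3 and 4), beside 2.23 at promoters (2.17, 2.15 and 2.38), 3.88 in introns and 5.13 in intergenic DNA. The covered share includes bases under reproducible peaks, where these summits could not lie. Of the strongest 3000 pooled summits 52.6% were promoter and 0.4% coding, so the folds of the classes are not like for like. As computed, coding summits were above promoter summits in the unweighted mean and below them in the weighted one.

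**Figure D4:**
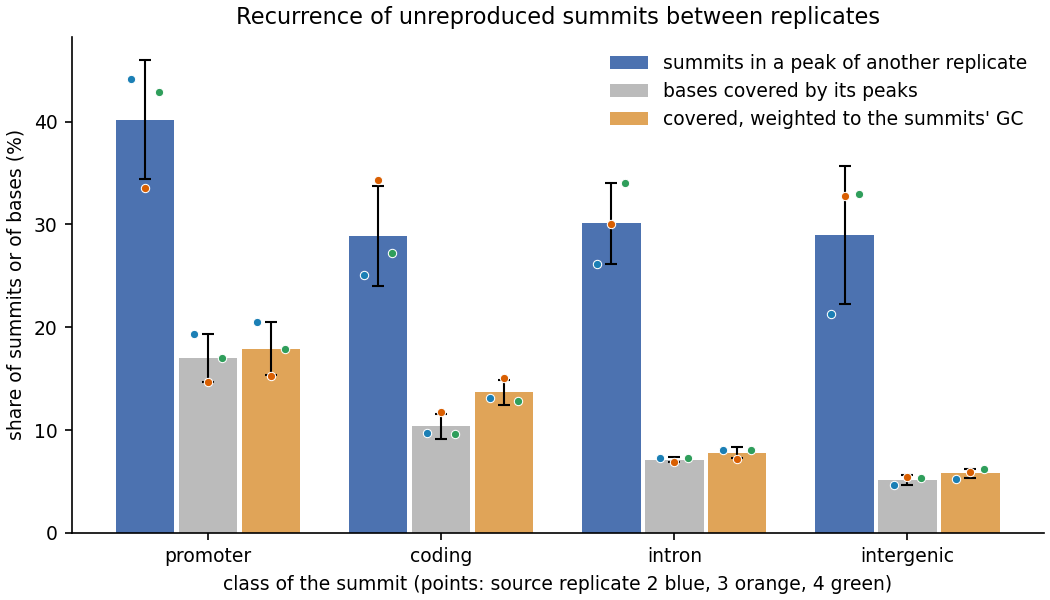
Share of unreproduced summits that lay in a peak of another replicate, averaged over the other 2 (blue bars), share of bases of the class that those peaks covered (grey) and the same share weighted to the summits' GC content (orange), in percent; bars are means over 3 source replicates, points are the replicates and error bars their SD, though the 3 share pairs of lists. The blue bar is above the grey and orange bars in every class, with the smallest ratios at promoters and in coding sequence. Covered bases include those under reproducible peaks, where these summits could not lie, so ratios are not like for like between classes.

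Within the pooled members, 693 held a summit of all 3 replicates, 2227 of 2, 2324 of 1 and 359 of none, so 52.1% had at least 2. The same share was 63.8% of weak promoter, 56.6% of weak intronic and 54.4% of weak intergenic peaks. The pooled list was made from the same replicates, so these are descriptions. Replicate 2 had a summit in 59.3% of members, replicate 4 in 59.8% and replicate 3 in 39.0%, whereas at weak promoter peaks replicate 3 led with 71.1% and replicate 2 had 44.8%. The most frequent pair was replicates 2 and 4, with 1161 members at a mean GC of 58.3%. The 589 members shared by replicates 3 and 4 alone had 56.3%, the 428 of replicate 3 alone 55.1%, and the 693 of all 3 replicates 58.6%. Among the strongest 3233 entries of a replicate there were 75 members in replicate 2, 3 in replicate 3 and 49 in replicate 4, and no member was in that set in all 3.

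Short words in the sequence followed base composition. Of 1791 6-base words tested, 91 (5.08%) were more frequent at weak coding summits than in eligible coding windows in all 3 replicates, at a ratio of 5 to 4 or more, and 221 (12.3%) were less frequent by the inverse ratio. All 91 had at least 4 G or C letters and all 221 had at most 2. The most extreme were CGGCCG, found in 6.48%, 6.66% and 6.37% of windows of replicates 2, 3 and 4 against 4.09% of eligible windows, and CGCCGC, in 26.0%, 23.3% and 25.5% against 16.2%. Next by mean fold were CCGCCC at 1.54, CCGCCG at 1.54, CGCCCC at 1.53, GCCGGC at 1.51, CGGCCC at 1.51 and GCCGCC at 1.5. At the other end ATAAAA was in 3.62%, 4.94% and 4.44% of windows against 8.46%. Next were ATATTA at a mean fold of 0.520, AATATA at 0.526, TTAAAA at 0.527, TATAAA at 0.534, ATTTAA at 0.538, TATTAA at 0.540 and ATTTTA at 0.541. When eligible windows were weighted to the GC content of each replicate's summits, 0 words were called in either direction.

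Known motifs were searched on both strands in the same windows, and none of the words holds another. The GAGA factor element GAGAGAG was in 1.16% of members, 1.05% of eligible coding windows and 4.73% of reproducible peaks. The DRE word TATCGATA, a promoter element bound by DREF, was in 0.143%, 0.184% and 3.80%. ACACTG, searched because it was already known to be frequent under reproducible peaks, was in 8.41% of members, 7.99% of eligible windows and 20.9% of reproducible peaks. For these 3, members stood close to ordinary coding sequence and far below reproducible peaks, of which only 15 were coding. Weak intronic and intergenic peaks held GAGAGAG in 4.55% and 3.42%, TATCGATA in 0.286% and 0.594%, and ACACTG in 11.0% and 10.5%. For GAGAGAG these weak noncoding peaks stood nearer to reproducible peaks than to members. Introns and intergenic DNA at large were not searched for these words, so whether this is particular to peaks cannot be told. The Zelda word CAGGTAG was in 2.09%, 1.89% and 0.897%, the E-box CACGTG in 3.62%, 2.98% and 2.38%, and the AP-1 word TGACTCA in 0.892%, 1.17% and 1.95%.

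Trinucleotide repeats stood higher. 4 CAG units in a row, which spell glutamine in 1 of the reading frames and are common in fly transcription factors, were in 3.72%, 3.19% and 3.45% of windows of replicates 2, 3 and 4, against 1.96% of eligible windows and 0.155% of reproducible peaks. 4 GGA units were in 0.612%, 0.555% and 0.591%, against 0.352% and 0% of reproducible peaks. All 3 replicates were above the coding average for both. Both repeats are rich in G and C, and they were not compared at matched GC. Only 15 of the reproducible peaks were coding. Repeats of this kind occur at many places in the genome, and the sources used here do not say how reads that align to several places were treated.

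The encoded amino acids shifted with the bases. Alanine, whose codons begin with GC, made up 8.91%, 8.44% and 8.68% of codons in replicates 2, 3 and 4, against 7.40% of eligible coding sequence (mean fold 1.17). Glycine, with codons beginning GG, made up 7.39%, 6.80% and 7.03%, against 6.08% (mean fold 1.16). Isoleucine, at 4.17% ± 0.157 against 4.82%, and phenylalanine, at 3.00% ± 0.115 against 3.43% (SD, n = 3), were lower in all 3 replicates, and their codons are rich in A and T. The other 16 amino acids did not pass a fold of 1.1 in all 3 replicates; proline had a mean fold of 1.11 and lysine 0.888. At matched GC the alanine fold was 1.04 and that of glycine 1.02, and 0 of 20 amino acids passed.

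Position within genes was uneven. Of summits in canonical coding sequence, 38.2% in replicate 2, 35.0% in replicate 3 and 38.3% in replicate 4 lay in coding exons of 1000 bp or more, against 42.0% of eligible windows (difference −4.86 points ± 1.91, SD, n = 3; exact sign-flip permutation p = 0.25). The last coding exon held 38.2% ± 1.07, against 33.6%. Summits lay inside exons rather than at their edges, with 72.8% ± 2.46 of them at least 100 bp inside, against 63.9%. Windows across an edge between exon and intron take in intronic sequence, which is lower in GC. Whether this bears on the edge result was not tested. The first 10% of the coding sequence held 7.26% ± 0.977 of summits, against 5.19% of eligible windows, and the next 10% held 9.39% ± 0.297, against 7.61%; the next step held 9.42%, against 9.25%, with replicate 3 alone above it. From there to the last 20% of the coding sequence the replicate mean was below the eligible share in each step. The step before the last 10% held 12.3%, 11.6% and 13.1% in replicates 2, 3 and 4, against 11.3%, and the last 10% held 10.3% ± 0.400, against 10.9%. Members lay at a median of 1539 bp from a TSS, against 1887 bp, and 33.4% lay within 5000 bp of a reproducible summit, against 24.4%. Eligible windows meet the same TSS rule, and why members lay nearer to both was not tested.

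Genes whose promoter carried a reproducible peak held 1330 members (23.7%), against 20.1% of eligible windows. The replicates were split, with 19.7% in replicate 2, 26.6% in replicate 3 and 24.1% in replicate 4, so replicate 2 was not above the coding average. Chromosome 4, a small chromosome rich in repeats and low in GC (40.0% in its eligible windows), held 34 members, 0.607% of the total against 1.37% of eligible sequence. There too the replicates differed, from 0.251% in replicate 2 to 1.64% in replicate 3. The X held 15.2% of members against 17.9% of eligible sequence, with 13.99%, 15.96% and 15.36% in replicates 2, 3 and 4, all below it. X coding sequence has the highest GC of the chromosomes, at 54.04%. The embryos were of mixed sex, and X copy number was not adjusted for.

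Members were spread over many genes. Of 12397 genes with eligible coding sequence, 3994 (32.2%) held at least 1, 2878 of them exactly 1, 798 exactly 2 and 17 at least 6. Genes with a member had a median of 1614 eligible bases, against 759 in genes without. The most members were in lola, a BTB zinc-finger transcription factor gene with many isoforms, with 12; the replicates had 8, 10 and 14 weak coding summits there. Then came osa, a subunit of the Brahma chromatin remodelling complex, with 9 (7, 5 and 6 in the replicates), and btsz, a synaptotagmin-like protein gene, with 9 (6, 7 and 7). Tm1, a tropomyosin gene, Smr, a corepressor of nuclear receptors, uif and Svil had 7 each, and CG42671 had 6. Their coding GC ran from 55.0% in lola to 61.5% in osa.

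Per kb of eligible sequence the mean over all genes was 0.302 members. Among genes with at least 2000 eligible bases the densest was CG12299, at 2.26 per kb with 5 members. It was followed by dsf, a nuclear receptor gene (1.94), grn, a GATA factor gene (1.87), trn, a leucine-rich repeat receptor gene (1.78), CG9098 (1.68), Tm1 (1.68), wnd, a MAP kinase kinase kinase gene (1.67), and CG42671 (1.61). Each replicate had at least 1 weak coding summit in each of these genes. The number of summits was small, from 1 to 5 per gene and replicate.

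Gene lists differed in density, and most pooled ratios lay nearer to 1 at matched GC. The Hox genes, which pattern the body axis, had members in 8 of 8 genes, beside 32.2% of all genes, and 3.13 times the density of all genes. The 12 members were 3 in lab, 2 each in Ubx and abd-A, and 1 each in pb, Dfd, Scr, Antp and Abd-B. The replicates were uneven, with 9 summits in replicate 2, 2 in replicate 3 and 11 in replicate 4, and ratios to all genes of 2.07, 0.813 and 2.57, so replicate 3 was below 1. The strongest Hox members were in pb (signal 76.7; 30.2, 24.9 and 20.6 in replicates 2, 3 and 4), Abd-B (66.3) and Ubx (65.8). Against the count given by the GC of Hox coding windows, 7.10 members, the observed 12 were 1.69 times as many, and the replicate ratios were 1.16, 0.542 and 1.56.

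Genes of basic cell functions also stood high. Cytoplasmic ribosomal proteins had members in 14 of 59 genes (23.7%, beside 32.2% of all genes; their eligible sequence has a median of 235 bp), at 2.75 times the density of all genes, with 1.38, 3.05 and 2.81 in replicates 2, 3 and 4. At matched GC the ratio was 1.87, and 0.963, 2.40 and 2.04 in the replicates, so replicate 2 was not above 1. The strongest of them was RpS3 (signal 81.2), followed by RpL24-like, which entered by its symbol alone, and RpL6. Enzymes of glycolysis had members in 7 of 12 genes (58.3%, beside 32.2% of all genes) at a ratio of 2.46 (1.51, 1.53 and 2.64). Pfk held 3 and Eno 2, and the ratio was 1.5 at matched GC (0.952, 1.1 and 1.75). Actins and tubulins had members in 8 of 14 genes (57.1%, beside 32.2%) at a ratio of 1.89 (2.03, 2.29 and 1.69). At matched GC it was 1.09 (1.21, 1.53 and 1.06). Some genes within the actin and tubulin families are similar in sequence, so reads could be shared between them. Single members of these families are therefore uncertain, and how similar the genes are was not measured.

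Genes of signalling and stress stood nearer to the average. The Notch pathway had members in 6 of 11 genes (54.5%, beside 32.2% of all genes). Its ratio was 1.28 (1.22, 1.84 and 1.15 in the replicates, all above 1). There were 5 in mam, 3 in kuz, a metalloprotease that cleaves Notch, and 2 in mib1, a ubiquitin ligase that acts on its ligands. At matched GC the ratio was 1.01 (0.969, 1.59 and 0.939). Heat shock genes had members in 8 of 24 genes (33.3%, close to the 32.2% of all genes) at a ratio of 1.24, but the replicates gave 0.729, 0.484 and 1.30. At matched GC the ratio was 0.885, and 0.532, 0.375 and 0.968 in the replicates, all below 1. Cuticle genes had members in 12 of 86 genes at a ratio of 1.08, with 1.76, 0.478 and 0.619 in the replicates, so the direction was split; Cpr, a P450 reductase gene, is among the 12 by its symbol alone.

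Long structural and neuronal genes were sparse in members. Cadherins, the calcium-dependent adhesion proteins, had members in 7 of 16 genes (43.8%, beside 32.2% of all genes) but a density ratio of only 0.264. They had 29, 0 and 20 weak coding summits in replicates 2, 3 and 4. The strongest was in shg, E-cadherin, at a signal of 97.8 (43.5 in replicate 2, no summit in replicate 3, 34.2 in replicate 4). ds, kug, stan and CadN, with 10668, 14097, 11044 and 9895 eligible bases, held 0 members. Spectrins and motor proteins had 0.377 times the density of all genes (0.498, 0.229 and 0.394), and muscle giants and sarcomere genes 0.512 (0.611, 0.313 and 0.409). In the muscle list the titin-like gene sls held 1 member in 55457 eligible bases at 47.2% GC, and Msp300 5 in 63805, whereas Tm1 held 7 in 4174 and up, troponin T, 3 in 1205. At matched GC the ratios were 0.375 for cadherins (1.02, 0 and 0.683), 0.50 for spectrins and motors (0.640, 0.268 and 0.486) and 0.735 for the muscle list (0.852, 0.389 and 0.551).

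Channels and synaptic proteins had a ratio of 0.394 (0.810, 0.341 and 0.549) and 0.382 at matched GC, with Syx1A strongest at a signal of 89.1. Extracellular matrix genes had members in 10 of 15 genes (66.7%, beside 32.2% of all genes) at a ratio of 0.788 (1.03, 0.442 and 0.790). At matched GC it was 0.649 (0.853, 0.389 and 0.669), farther from 1 and below it in all 3 replicates. There were 5 each in vkg, a collagen IV chain, and wb, a laminin chain. Chemoreceptors, which are low in GC at 46.4%, had members in 21 of 179 genes (11.7%, beside 32.2%) at a ratio of 0.433, and 0.824 at matched GC. Cytochrome P450 genes went from 0.697 to 0.992. For these last 2 lists the ratio at matched GC was the closer to 1.

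A few lists rested on replicate 2. In the Dscam genes, cell surface proteins of neuronal self-recognition, replicate 2 had 19 weak coding summits, replicate 3 had 0 and replicate 4 had 2. Dscam1, whose coding sequence includes long arrays of alternative exons, had 10 in replicate 2 and 0 in each other replicate, and 3 pooled members. Glutamate and acetylcholine receptors had 15, 1 and 1. Mediator subunits (7 members, ratio 0.508), nuclear pore proteins (9 members, 0.490), ABC transporters (4 members, 0.550) and serine proteases (1 member, 0.539) had replicate ratios on both sides of 1 or few members. Of the 20 lists, 4 were denser than all genes in each replicate, 7 were sparser in each and 9 were mixed; at matched GC 1 was above, 6 below and 13 mixed.

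**Figure D5:**
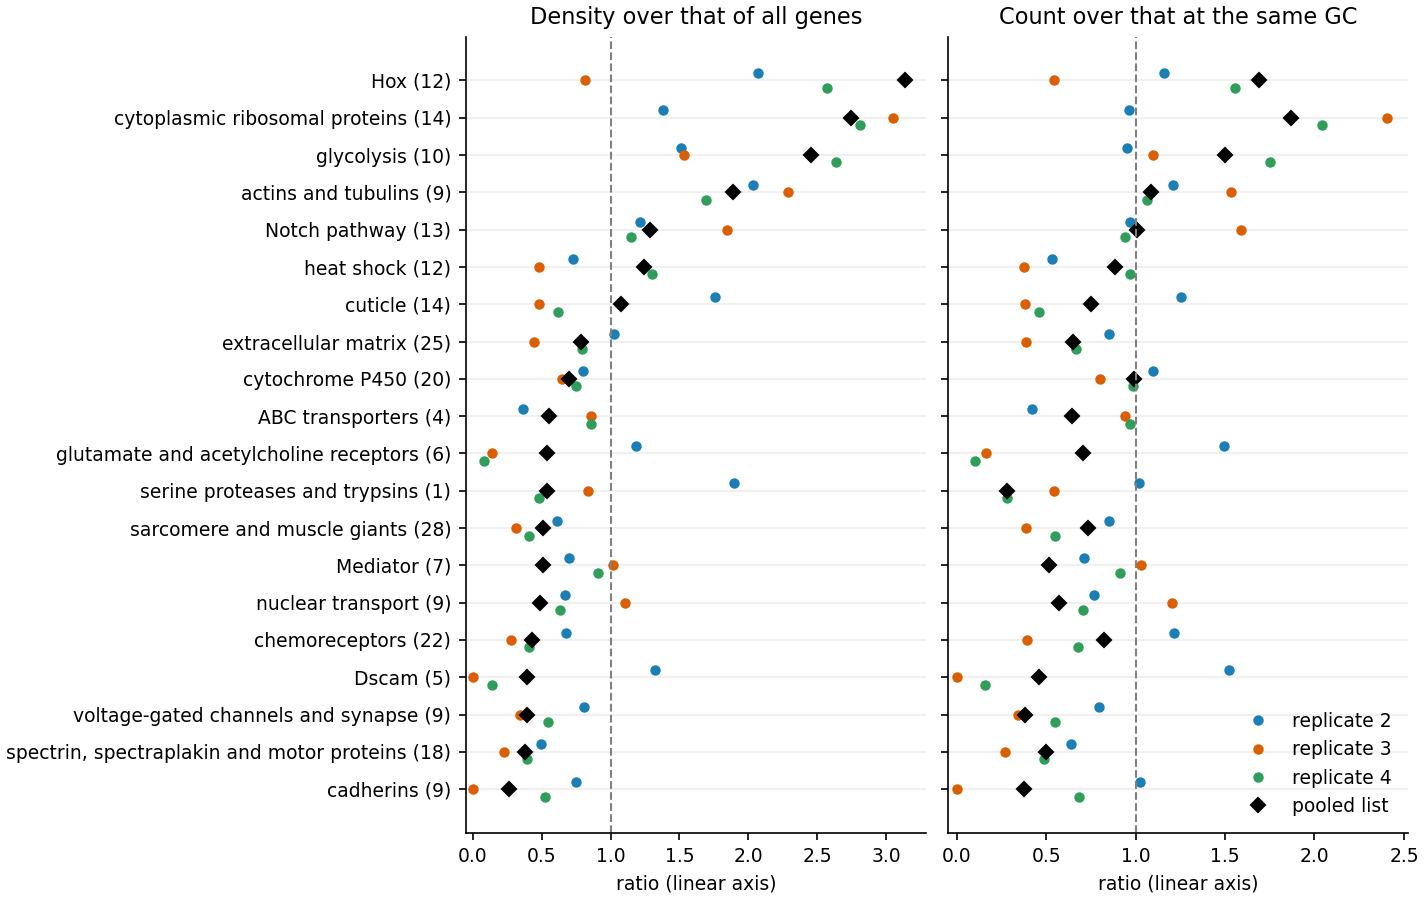
Ratio for 20 gene lists (rows, with the number of pooled members in parentheses) of member density to that of all genes (left) and of the member count to the count given by the GC content of the list's eligible windows (right); diamonds are the pooled list and dots the 3 replicates, and the dashed line is a ratio of 1. At the left the pooled ratios run from 0.264 in cadherins to 3.13 in Hox genes, and at the right they lie between 0.278 and 1.87.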

How the data were processed

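The authors deposited a ranked peak list from each replicate and from all replicates together, and a list kept after IDR, per the deposited file descriptions. The deposited signal value ranks peaks within a list; the sources used here do not name its scale, the peak caller or its version. The deposited −log10 q-value was used only to describe members. With no read numbers in those sources, depth is unknown, and no interval rests on it. The dm6 lists were used, with Ensembl release 115 (BDGP6.54) and the Release 6 genome, whose coordinates are dm6; the dm3 lists were not used.

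A member's summit lay in a coding sequence and more than 500 bp from every TSS, transposable elements excluded. Eligible coding sequence is all sequence that meets the same position rule, tiled every 200 bases into windows of 201 bases. Replicate lists were classed in the same way. SD and exact sign-flip permutation tests are over the 3 replicates, called biological replicates in the labels. In this test p is 0.25 whenever all 3 differences share a sign, whatever their spread, so p does not measure the spread between samples. Recurrence is a summit in a peak of another replicate. A 6-mer was tested when in 5% of windows or more. GC weighting used bins of 5 points and, with the gene list ratios at matched GC, was chosen after seeing the data. Members of a list count genes matched by symbol; Unc-89, dp and Dl had no match. Members and lists were chosen with earlier results of these data known. Genes named are the 15 strongest members, the 5 weakest reproducible coding peaks, the 8 genes with most members and the 8 densest, up to 3 strongest members per list, the 5 strongest members found in all 3 replicates, and the 8 6-mers of most extreme fold each way; other genes of the lists, the counts in CG8089 and otp were named after their values were seen. Only the 6-mer calls were tried on simulated data, made by drawing eligible coding windows and raising the frequency of some words. That rise was set past the threshold, so finding those words was fixed in advance. Amino acid and gene list values were not tried in this way. Python 3.11.15, numpy 2.4.6, pandas 2.3.3 and matplotlib 3.10.9 were used.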

Additional observations from a re-analysis of the deposited data

How the results depend on the processing

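Of 62 alternatives, 36 stayed within a set limit of the main value, 25 moved past it and 1 turned the direction. The limit was the SD for means over replicates and 1.5 times for counts. For the pooled coding share, support by 2 or 3 replicates and the share in genes with a reproducible promoter peak, it was a 95% binomial interval over peaks. That interval treats peaks as independent and holds no spread between replicates, so these labels are only a rough guide. The 1 that turned was the coding share of single replicates against the genome, 1.48 times the genome share and 0.902 times with GC-weighted genome windows. With a TSS distance of 250 bp the pooled coding share was 25.1%, against 15.8% of the genome. The share in exons of 1000 bp or more was 34.3%, against 39.3% of eligible windows. With 1000 bp they were 14.9%, against 10.6%, and 40.7%, against 45.7%, and the replicate mean of the coding share was 14.6%. The 15000 pooled entries of highest signal held 1915 members, a coding share of 16.7%. Among the stronger members by signal, 75.6% had a summit of 2 or 3 replicates, recurrence was 34.4% and 25.0% lay in genes with a reproducible promoter peak. With summits within 100 bp, support was 39.3% and recurrence 20.3%. GC content was 56.9% with a 50 bp flank and 57.4% in windows wholly inside a coding exon, against 52.7% and 53.8% of eligible windows.

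The number of 6-mers called, 312 (91 higher, 221 lower), of 1791 tested, was 132 of 831 with a 50 bp flank (88 higher, 44 lower), 30 at a fold of 1.5 (1 higher, 29 lower), 1414 of 1932 against intronic summits (777 higher, 637 lower) and 0 with GC-weighted windows. The 4 amino acids became 0 at a fold of 5 to 4 and 0 with GC-weighted windows. The fold of recurrence over the covered share was 2.13 with GC weighting. Leaving out each replicate in turn gave 324 to 488 6-mers (488 without replicate 3) and support by both remaining replicates in 20.9 to 33.1% of members, against 52.1% by at least 2 of 3, a lower value by construction. It gave a coding share of 18.9 to 23.9%, 55.6 to 56.4% GC, recurrence of 25.0 to 31.3%, 3228 to 3537 genes, 4 to 6 amino acids and 36.6 to 38.3% in long exons. Other causes were not tested. Unknown read depth and 3 replicates limit all of these values.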
